A study of Mus musculus with 8 samples.

Results

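The DNA replication machinery was described here through 49 genes that copy chromosomal DNA, matched to the rows of the count table by Entrez ID. They were chosen by name for their known roles, with earlier results of these data known. They are 49 of the 27179 genes in the table, and they fall into 9 genes of origin licensing, 15 of the replicative helicase and its activation, 6 of the sliding clamp and clamp loading, 9 of the DNA polymerases and primase, 5 of single-strand binding and strand joining, and 5 of nucleotide supply. RNA-seq was performed on neonatal cardiomyocytes (NCMs) from C57Bl/6 J mice, each library from 1 male heart taken on postnatal day 0. The dams had breathed filtered air (FA, 4 libraries: replicates 2, 3, 4 and 6) or diesel exhaust (DE, 4 libraries: replicates 1, 3, 5 and 7) throughout most of gestation (E0.5 to E17.5), for 6 h on each of 5 days a week. The labels name no allele. In both groups the dissociated cells stood for 1 h in 20 µM Ara-C, an inhibitor of DNA synthesis, while fibroblasts attached to the plate, and the cells left in suspension were collected. The comparison asks whether in utero exposure to DE altered transcription of these genes in NCMs.

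Before a cell copies its DNA, the origin recognition complex (ORC), Cdc6 and Cdt1 load rings of Mcm2 to Mcm7 onto the origins, a step called licensing. Kinases then turn each ring, with Cdc45 and the GINS complex, into a moving helicase, behind which primase and the DNA polymerases work on a clamp of PCNA that a clamp loader has placed. Mouse cardiomyocytes still divide around birth and mostly leave the cell cycle soon afterwards, and many of these genes are transcribed under E2F factors as a cell enters S phase.

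Between 17943024 and 39839737 fragments were counted per library, and levels are given as CPM, the counts scaled to a common library size by TMM factors. All 49 genes passed the filter on low counts, with at least 48 counts in every library. A gene was called where edgeR's quasi-likelihood test gave an adjusted p of at most 0.05 (Benjamini-Hochberg over 14966 tested genes) and the groups differed by at least 25%. To check the labelled cell type, 10 markers each of cardiomyocytes and fibroblasts were read in the same libraries. The cardiomyocyte markers were abundant, summing to between 52780 and 74670 CPM, with the myosin Myh6, the troponin Tnnt2 and the actin Actc1 among them. The fibroblast markers summed to 2210 to 3753 CPM in FA and 3922 to 6583 CPM in DE, without overlap. In RNA from a whole pellet, a different number of cells of a type and a different amount of RNA per cell cannot be told apart. The library names open with the number 11 in all of FA and in DE replicates 1 and 7, and with 12 in DE replicates 3 and 5. What this number stands for is not given in the sources used here. Prefix 12 occurs in DE only. Where the name prefix is a term in the fit, the fold change comes from the prefix 11 libraries, as with prefix 11 only. Fits with the prefix as a term and with prefix 11 only are thus not separate checks.

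Most of the replication genes were higher in DE. Of the 49 genes, 35 rose, 0 fell and 14 were not called, where 5.8% of all tested genes were called in either direction and 3.58% were called higher. At an unadjusted p under 0.05, 40 were higher and 1 was lower, where 13.4% of all tested genes were higher and 12.2% lower at that level. DESeq2 called 39 higher and 0 lower, where it called 6.21% of all tested genes higher and 4.7% lower. The median log2 fold change was 0.57, with a range from -0.30 (Orc4) to 1.02 (Lig1), against a median of 0.00371 over all tested genes. Summed over the 49 genes, the level was 1105, 1087, 1181 and 1355 CPM in FA replicates 2, 3, 4 and 6 and 1646, 1705, 1726 and 1700 CPM in DE replicates 1, 3, 5 and 7. The FA mean was 1182 ± 122 CPM and the DE mean 1694 ± 34.2 CPM (SD, n = 4 each), a ratio of 1.43. Every DE library lay above every FA library in 38 of the 49 genes, where 7.43% of tested genes showed this. Every DE library lay below every FA library in 1, Orc4, and the share of tested genes showing that was not counted. The FA libraries were spread more widely than the DE libraries in this sum. FA replicate 6 was the highest FA library in 38 genes and the lowest in 0, and FA replicates 3 and 2 were the lowest in 24 and 19. Among the DE libraries, DE replicate 5 was the highest in 20 genes and DE replicate 1 the lowest in 22.

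**Figure D1:**
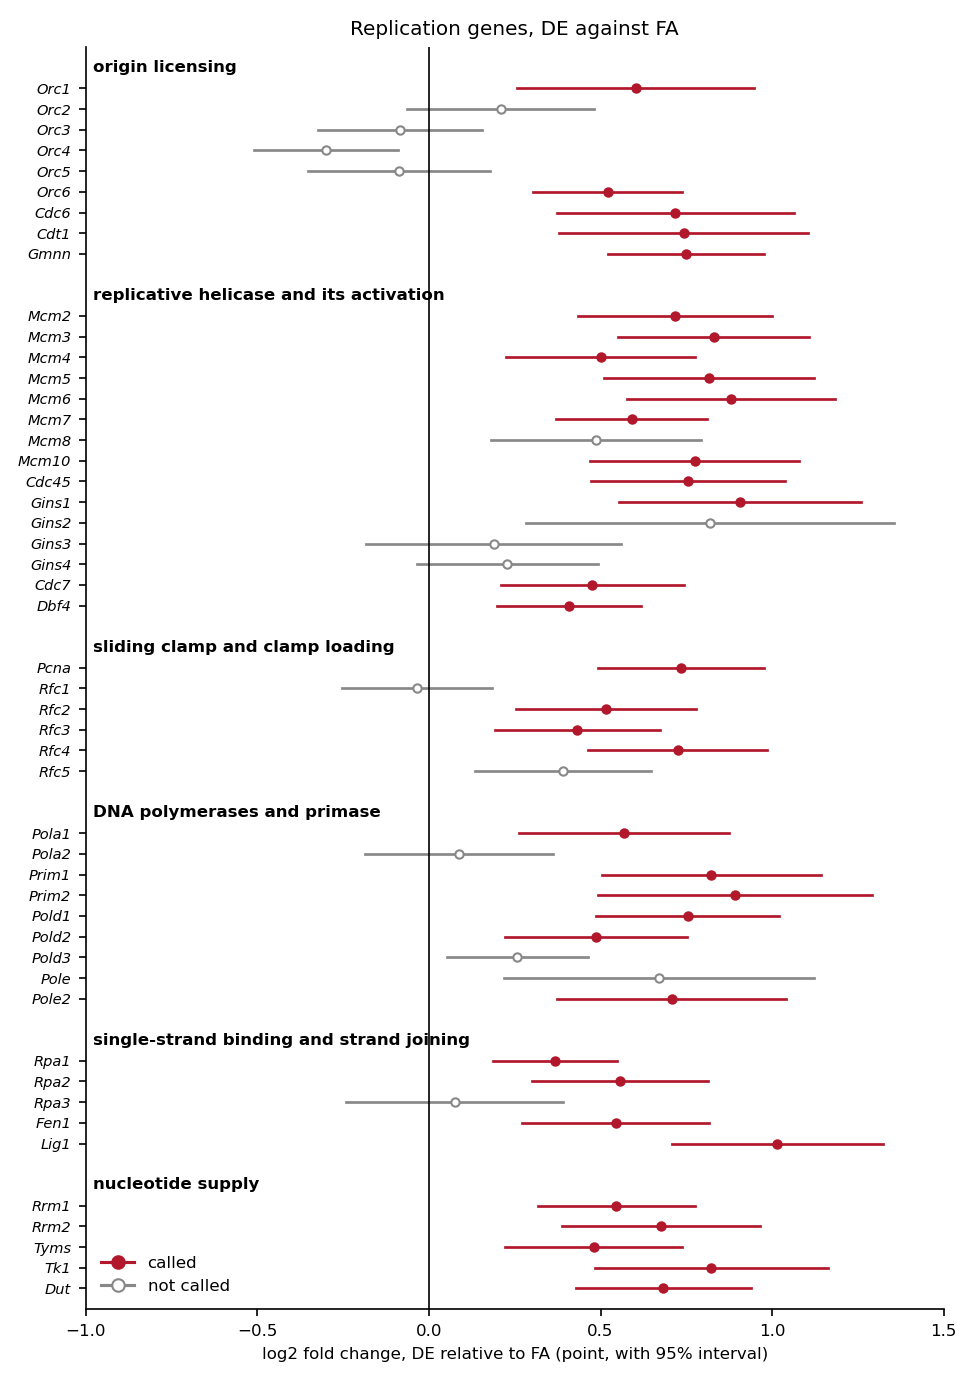
Log2 fold change of DE relative to FA for the 49 replication genes by role, with its 95% interval; filled red points are called genes (adjusted p of at most 0.05 and at least 25% apart), open grey points are not called. The 35 called genes lie right of 0, and Orc2 to Orc5, Gins3, Gins4, Rfc1, Pola2 and Rpa3 lie nearest to 0 or left of it.

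The roles had medians between 0.47 and 0.72, with ORC the low part of licensing (0.06, and 0.21 with the name prefix as a term). The median log2 fold change was 0.52 in origin licensing (5 of 9 genes called), 0.72 in the helicase and its activation (11 of 15), 0.47 in the clamp and its loader (4 of 6), 0.67 in the polymerases and primase (6 of 9), 0.54 in strand binding and joining (4 of 5) and 0.68 in nucleotide supply (5 of 5). With the name prefix as a term, 2 of 9, 8 of 15, 2 of 6, 5 of 9, 1 of 5 and 3 of 5 were called in the same order. No test was made of one role against another. Averaged over its genes, each of the 6 roles was lower in every FA library than in any DE library. FA replicate 6 stood nearest to the DE libraries in each role, at -0.0529 in the helicase genes on a log2 scale centred on the mean of the 8 libraries, where the other FA libraries lay between -0.443 and -0.271 and the DE libraries between 0.23 and 0.364.

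**Figure D2:**
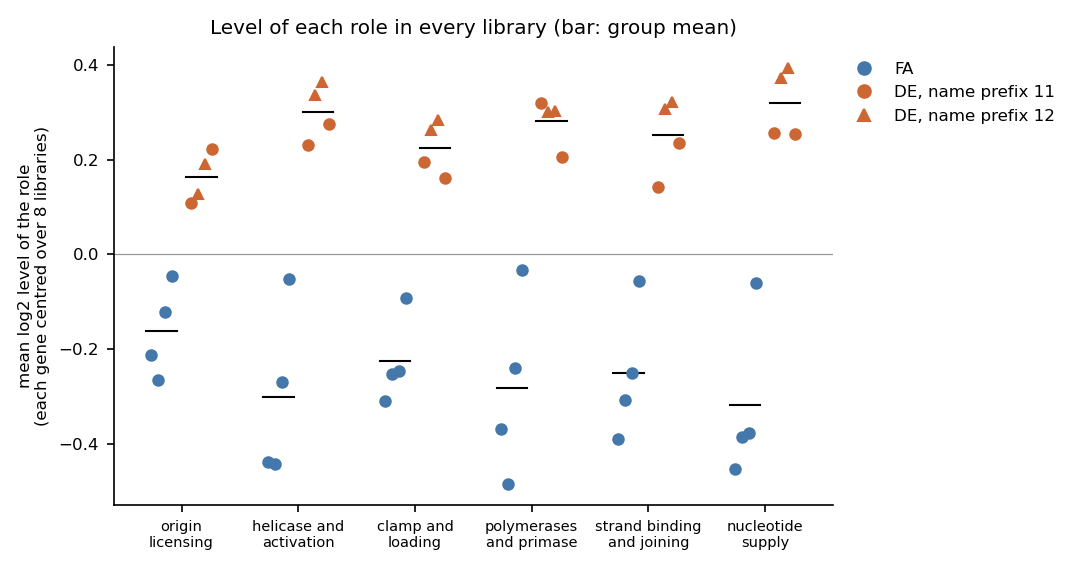
Mean log2 level of the genes of each role in every library, each gene centred on its mean over the 8 libraries; blue circles are FA libraries, orange circles DE libraries with name prefix 11, orange triangles DE libraries with name prefix 12, and bars are group means. In all 6 roles the 4 FA libraries lie below 0 and the 4 DE libraries above it, with FA replicate 6 the highest of FA.

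Promoters are shown for the genes with the lowest adjusted p that hold letters of an E2F motif, and for the pair with the highest adjusted p. The called genes shown were picked for holding these letters, so nothing is read from the printed windows about called against uncalled genes. Windows from 250 bases before to 50 bases after the RefSeq start (build GRCm38.p6) were given for 41 of the 49 genes, and for 8 none was (Gins1, Gins2, Gins4, Gmnn, Mcm4, Pole, Prim2 and Rfc2). The E2F letters searched on both strands were TTTCCCGC, TTTGGCGC, TTTCGCGC and TTTGCCGC, which can overlap each other on opposite strands. They stood in a window of 16 of the 41 genes (39.0%) and of 704 of 27025 genes in all (2.6%), some genes having more than 1 window. Of the genes with a window, 12 of 30 called ones and 4 of 11 others held them, the latter being Mcm8, Orc3, Gins3 and Pold3. The NF-Y letters CCAAT stood in a window of 24 of the 41 (58.5%, against 41.1% of genes), and TTTGAA of the CHR element, found in cell cycle genes of G2 and M phase, in 7 of 41 (17.1%, against 20.2%). A match describes the letters of a window and is not a measured binding site. In the sequences below, read 5′ to 3′ on the gene's strand, capitals mark E2F letters and, in the longer stretches, also CCAAT or its complement. The first 3 are stretches of 30 bases past the start, and the last 3 are the 250 bases before it. Lig1 lies on the plus strand at chr7:13278841-13278870, Mcm3 on the minus strand at chr1:20820275-20820304 and Pold1 on the minus strand at chr7:44548766-44548795. Mcm6, with E2F letters at -110, -106 and -47 from its start, is shown at chr1:128359706-128359955 on the minus strand. Rpa3 at chr6:8259142-8259391 and Rfc1 at chr5:65335640-65335889, also on the minus strand, hold no E2F letters in the window.
Lig1: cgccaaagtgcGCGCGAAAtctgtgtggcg
Mcm3: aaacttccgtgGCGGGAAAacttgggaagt
Pold1: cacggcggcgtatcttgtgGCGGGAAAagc
Mcm6: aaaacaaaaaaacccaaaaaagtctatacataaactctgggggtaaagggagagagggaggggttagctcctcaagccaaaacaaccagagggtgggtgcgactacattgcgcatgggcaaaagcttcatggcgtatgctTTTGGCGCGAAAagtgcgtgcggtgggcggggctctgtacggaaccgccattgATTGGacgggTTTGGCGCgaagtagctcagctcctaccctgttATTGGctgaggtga
Rpa3: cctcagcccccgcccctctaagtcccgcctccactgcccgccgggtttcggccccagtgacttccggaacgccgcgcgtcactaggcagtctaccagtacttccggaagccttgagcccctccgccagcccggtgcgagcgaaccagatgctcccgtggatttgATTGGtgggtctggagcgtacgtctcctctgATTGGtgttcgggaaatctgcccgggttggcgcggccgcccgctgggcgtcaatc
Rfc1: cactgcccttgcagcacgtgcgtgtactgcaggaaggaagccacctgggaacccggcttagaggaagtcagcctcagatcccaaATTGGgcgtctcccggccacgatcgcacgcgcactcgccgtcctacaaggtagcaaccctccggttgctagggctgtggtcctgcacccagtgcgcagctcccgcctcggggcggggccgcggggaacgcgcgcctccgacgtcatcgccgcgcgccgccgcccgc

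Origin licensing differed within itself. The loading factors Cdc6 and Cdt1, their inhibitor geminin (Gmnn), and 2 of the 6 ORC subunits rose, while Orc2, Orc3, Orc4 and Orc5 were not called, and the median of the 6 ORC genes was 0.06. This median became 0.21 with the name prefix as a term and 0.21 with prefix 11 only, and it ran from 0.008 (without DE replicate 7) to 0.12 (without DE replicate 3). In what follows, values stand in the order FA replicates 2, 3, 4 and 6 and DE replicates 1, 3, 5 and 7. Orc1, a subunit that leaves the complex after licensing in many mammalian cells, lay at 3.37, 2.59, 3.44 and 3.98 CPM in FA and at 4.9, 4.67, 5.58 and 5.17 CPM in DE. It rose (log2 fold change 0.60, SE 0.16, adjusted p = 0.0476, up to 0.134 without FA replicate 2), without overlap of the groups. Orc6, the smallest subunit, lay at 20.6, 24.1, 22.1 and 25.6 CPM in FA and at 31.3, 32.7, 34.7 and 33.6 CPM in DE and rose (log2 fold change 0.52, SE 0.10, adjusted p = 0.0158, up to 0.0734 without FA replicate 4). The other 4 subunits form the stable part of the complex. Orc4 lay at 44.8, 43.5, 48.8 and 47.3 CPM in FA and at 34.2, 35.2, 39.1 and 41.4 CPM in DE, and every DE library was below every FA library, but the gene was not called (log2 fold change -0.30, 95% interval -0.51 to -0.09, adjusted p = 0.0864). With DESeq2 its adjusted p was 0.0396. Orc2 lay at 18.7, 16.4, 18.6 and 17.3 CPM in FA and at 19.96, 18.4, 18.3 and 25.5 CPM in DE, DE replicate 7 being apart from the other 7 libraries (log2 fold change 0.21, 95% interval -0.06 to 0.48, adjusted p = 0.314). Orc3, in FA the most abundant ORC gene per length of transcript (in DE this was Orc6), lay at 64.7, 57.5, 63.5 and 58.3 CPM in FA and at 63.05, 49.7, 52.8 and 64.8 CPM in DE (log2 fold change -0.08, 95% interval -0.32 to 0.15, adjusted p = 0.656). Orc5 lay at 14.6, 14.7, 13.5 and 15.5 CPM in FA and at 16.6, 13.1, 12.2 and 13 CPM in DE, DE replicate 1 being the highest and DE replicate 5 the lowest of all 8 (log2 fold change -0.09, 95% interval -0.35 to 0.18, adjusted p = 0.682). For Orc2, Orc3 and Orc5 the groups overlapped. The interval of Orc3 and that of Orc5 reach at most 0.18 on the log2 scale.

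The genes that act on ORC-bound DNA were higher together. Cdc6, the ATPase that joins ORC to the Mcm ring, lay at 4.97, 4.38, 6.49 and 5.7 CPM in FA and at 7.11, 9.66, 9.15 and 9.43 CPM in DE and rose (log2 fold change 0.72, SE 0.16, adjusted p = 0.0266, up to 0.0963 without FA replicate 2). Cdt1, which brings the ring, lay at 15.7, 14.9, 19.5 and 23.9 CPM in FA and at 25.6, 33.8, 36.2 and 28.02 CPM in DE and rose (log2 fold change 0.74, SE 0.17, adjusted p = 0.0282, up to 0.0976 without FA replicate 2); FA replicate 6 came close to DE replicate 1. Gmnn (Entrez 57441, GRCm38 chr13:24751845-24761937) lay at 19.4, 23.1, 20.02 and 23.8 CPM in FA and at 34.3, 36.6, 39.3 and 34.7 CPM in DE. The groups were far apart, and it rose (log2 fold change 0.75, SE 0.10, adjusted p = 0.00303). Gmnn was also called in each of the 21 other settings tried. With 1 library left out, 1 of the 9 licensing genes was called without FA replicate 2, 2 without FA replicates 3 or 4 or DE replicates 3 or 5, and 3 without DE replicate 7.

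Because geminin binds Cdt1 and stops licensing, the balance of the pair was read within each library. The log2 ratio of Cdt1 over Gmnn was -0.291, -0.614, -0.0361 and 0.00582 in FA and -0.416, -0.111, -0.118 and -0.303 in DE. The groups overlapped and their means differed by -0.00287, less than the SD within either group (0.285 in FA, 0.149 in DE; exact two-sided permutation p = 0.971, adjusted over 6 ratios 0.971).

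The helicase core rose as a whole. All 6 genes of Mcm2 to Mcm7 were called (median log2 fold change 0.77), and in each of them every DE library was above every FA library. Mcm6 (Entrez 17219, chr1:128331575-128359705) lay at 39, 35.7, 46.1 and 57.4 CPM in FA and at 77, 82.2, 82 and 86.2 CPM in DE (log2 fold change 0.88, SE 0.14, adjusted p = 0.00641). Mcm3 (Entrez 17215, chr1:20802966-20820312) lay at 23.7, 24.5, 28.3 and 33.1 CPM in FA and at 41.8, 53.4, 48.2 and 51.2 CPM in DE (log2 fold change 0.83, SE 0.13, adjusted p = 0.00552). These were the subunits with the largest changes, and both were called in all 21 other settings. Mcm5 lay at 19.6, 20.02, 25.8 and 29.8 CPM in FA and at 37.7, 43.2, 42.4 and 43.8 CPM in DE (log2 fold change 0.82, SE 0.14, adjusted p = 0.00968). Mcm2, which also carries histones at the fork, lay at 21.9, 19.7, 23.6 and 30.5 CPM in FA and at 40.3, 39.7, 40 and 37.1 CPM in DE (log2 fold change 0.72, SE 0.13, adjusted p = 0.0117). In Mcm5 and Mcm2, FA replicate 6 was the FA library nearest to DE. Mcm7, the most abundant of the 6 per length of transcript, lay at 53.3, 57.8, 57.7 and 69.1 CPM in FA and at 87.5, 86.1, 90 and 94.7 CPM in DE (log2 fold change 0.59, SE 0.10, adjusted p = 0.00968), and its exons overlap those of Cops6 and Ap4m1 on the other strand. Mcm4 lay at 34.3, 27.7, 39.99 and 42.1 CPM in FA and at 49.4, 52.1, 50.6 and 51.6 CPM in DE (log2 fold change 0.50, SE 0.13, adjusted p = 0.0419, up to 0.127 without FA replicate 2), the smallest change of the 6. With 1 library left out in turn, 5 or 6 of the 6 were called, Mcm4 being the one lost, without FA replicates 2, 3 or 4 or DE replicates 3, 5 or 7. With name prefix 11 only, 3 were called (Mcm3, Mcm6 and Mcm7), with a median of 0.73.

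**Figure D3:**
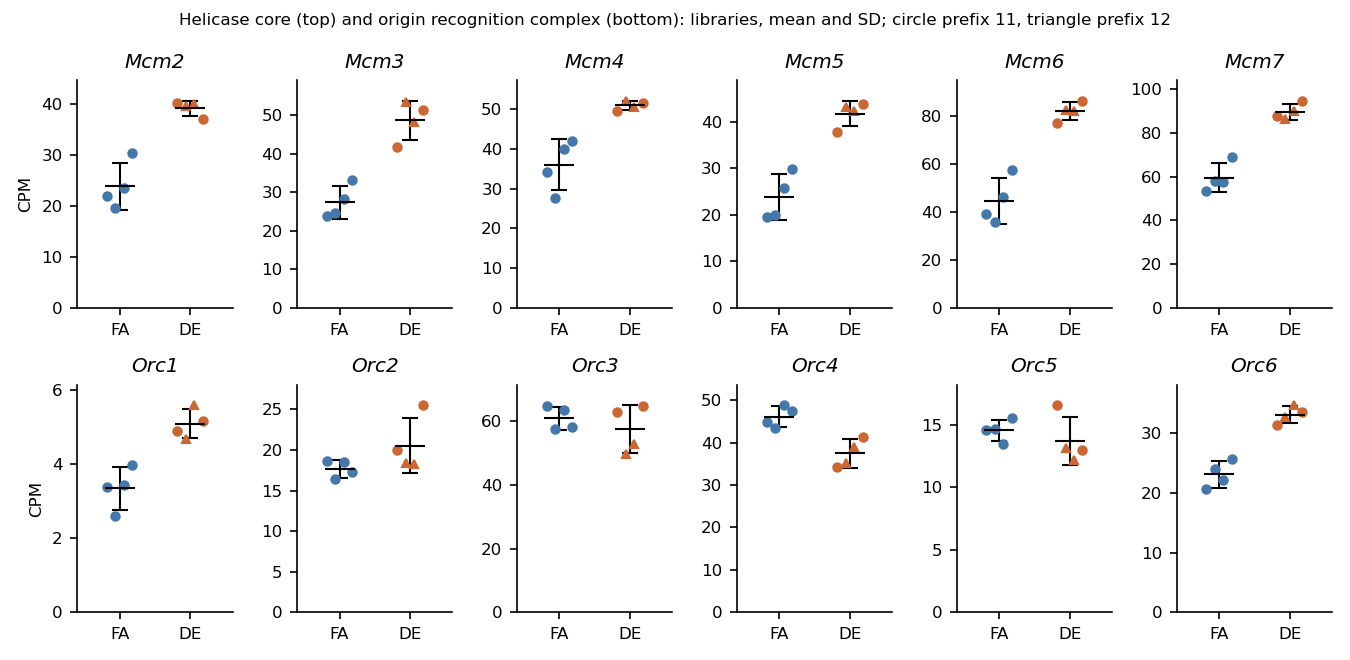
CPM of the 6 Mcm2 to Mcm7 genes (top row) and the 6 ORC genes (bottom row) in every library, each axis starting at 0; circles are libraries with name prefix 11 and triangles those with prefix 12, blue is FA and orange DE, and the bars give the mean and SD of 4 libraries. The groups are apart in all 6 Mcm genes and in Orc1, Orc4 and Orc6, with Orc4 lower in DE, and they overlap in Orc2, Orc3 and Orc5.

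Per kilobase of exon, levels within the ring were unequal. In FA they were 13.4 CPM per kb for Mcm7, 10.04 for Mcm4, 9.54 for Mcm6, 7.3 for Mcm3, 5.96 for Mcm5 and 3.44 for Mcm2. In DE the order ran Mcm7 (20.2), Mcm6 (17.55), Mcm4 (14.2), Mcm3 (13.0), Mcm5 (10.5) and Mcm2 (5.65). The exon length of each gene was the union over its annotated transcripts, so a gene with many long transcripts that NCMs do not use reads too low on this scale. Over all 49 genes, Pcna was the highest per length in FA (34.2 CPM per kb), followed by Rrm2 (26.1) and Gmnn (14.7), and Mcm10 the lowest (0.656).

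The factors that activate the ring rose in part. Cdc45, which completes the helicase, lay at 10.4, 9.91, 9.25 and 13.7 CPM in FA and at 18.4, 18.3, 18.6 and 17.47 CPM in DE (log2 fold change 0.75, SE 0.13, adjusted p = 0.00968). Mcm10, which is needed to start unwinding, lay at 4.36, 4.63, 5.7 and 5.51 CPM in FA and at 8.07, 9.15, 9.4 and 7.67 CPM in DE (log2 fold change 0.77, SE 0.14, adjusted p = 0.0114). Both rose without overlap and were called with any 1 library left out. Of the 4 GINS genes, Gins1 rose and 3 were not called by the quasi-likelihood test, of which DESeq2 (adjusted p = 0.0205) and the likelihood ratio test of edgeR called Gins2. Gins1 lay at 3.85, 3.64, 3.44 and 5.26 CPM in FA and at 6.74, 7.57, 8.65 and 7.35 CPM in DE (log2 fold change 0.91, SE 0.16, adjusted p = 0.011). Gins2 lay at 2.62, 3.24, 3.5 and 4.62 CPM in FA and at 4.32, 8.03, 7.38 and 4.53 CPM in DE (log2 fold change 0.82, 95% interval 0.28 to 1.35, adjusted p = 0.0719). DE replicates 3 and 5, the pair with prefix 12, were the high ones of Gins2, while DE replicates 1 and 7 lay within the FA range, and the gene was called without DE replicate 1 (adjusted p = 0.0364). Gins3, which had the lowest count of the 49 in any library, lay at 2.41, 2.39, 3.05 and 3.49 CPM in FA and at 2.99, 3.38, 3.39 and 3.04 CPM in DE (log2 fold change 0.19, 95% interval -0.18 to 0.56, adjusted p = 0.51). Gins4 lay at 11.7, 15.7, 12.2 and 13.9 CPM in FA and at 16.5, 14.6, 14.8 and 16.7 CPM in DE (log2 fold change 0.23, 95% interval -0.04 to 0.49, adjusted p = 0.256). In Gins3 and Gins4 the groups overlapped.

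The kinase that fires licensed origins is made of Cdc7 and its activator Dbf4. Cdc7 lay at 7.05, 6.32, 8.07 and 8.16 CPM in FA and at 10.9, 10.1, 10.3 and 9.75 CPM in DE and rose (log2 fold change 0.48, SE 0.12, adjusted p = 0.0447, up to 0.14 without FA replicate 2). Dbf4 lay at 35.2, 33.2, 33.3 and 37.3 CPM in FA and at 44.3, 41.7, 49.4 and 49 CPM in DE and rose (log2 fold change 0.41, SE 0.10, adjusted p = 0.0335, up to 0.123 without FA replicate 4). The log2 ratio of Dbf4 over Cdc7 was 2.16 ± 0.142 in FA and 2.11 ± 0.152 in DE (SD, n = 4 each), a difference of -0.0505 (exact two-sided permutation p = 0.629, adjusted 0.755). Both genes lost the call without each of FA replicates 2, 3 and 4 and DE replicates 3, 5 and 7, and Cdc7 also without DE replicate 1. Mcm8, a relative of the ring that acts in repair, lay at 5.16, 4.93, 6.71 and 6.29 CPM in FA and at 7.95, 7.97, 8.9 and 7.35 CPM in DE and was not called (log2 fold change 0.49, 95% interval 0.18 to 0.79, adjusted p = 0.0639), though its groups did not overlap and DESeq2 gave an adjusted p of 0.0192.

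The clamp rose, and its loader rose in all but its large subunit and Rfc5. Pcna (Entrez 18538, chr2:132249286-132253180), the ring that holds polymerases on DNA, lay at 79.1, 75.9, 75 and 98.3 CPM in FA and at 123, 146, 139 and 139 CPM in DE (log2 fold change 0.73, SE 0.11, adjusted p = 0.00498). Rfc4 lay at 8.93, 11.5, 10.3 and 11.9 CPM in FA and at 17.51, 17.9, 18.7 and 16.1 CPM in DE (log2 fold change 0.72, SE 0.12, adjusted p = 0.00843). Rfc2 lay at 22.3, 28.2, 24 and 28.9 CPM in FA and at 34.7, 38.3, 42 and 32.6 CPM in DE (log2 fold change 0.52, SE 0.12, adjusted p = 0.0332, up to 0.115 without FA replicate 4). These 3 rose with no overlap between the groups. Rfc3 lay at 9.09, 9.76, 8.85 and 10.8 CPM in FA and at 12.3, 13.6, 13.2 and 12.7 CPM in DE and rose (log2 fold change 0.43, SE 0.11, adjusted p = 0.0433, up to 0.149 without FA replicate 4). Rfc5 lay at 14.9, 13.2, 17.4 and 13.6 CPM in FA and at 19.1, 19.95, 20.8 and 17.4 CPM in DE, with DE replicate 7 level with FA replicate 4 (log2 fold change 0.39, 95% interval 0.13 to 0.65, adjusted p = 0.0719). It was not called by the quasi-likelihood test and was called by the likelihood ratio test and by DESeq2 (adjusted p = 0.0296). Rfc1, the large subunit, lay at 55.8, 48.2, 55 and 60.2 CPM in FA and at 58.2, 50.5, 50.05 and 55.3 CPM in DE. Its groups overlapped throughout, and it was not called (log2 fold change -0.04, 95% interval -0.25 to 0.18, adjusted p = 0.851). The log2 ratio of Rfc1 over Rfc4 was 2.58, 2.02, 2.36 and 2.29 in FA and 1.7, 1.47, 1.39 and 1.75 in DE, a difference of -0.73 with no overlap. For this ratio the exact two-sided permutation p was 0.029, the smallest that 4 against 4 libraries allow, and 0.0572 after adjustment over 6 ratios, so it did not pass. Of the 6 genes, 2 were called without FA replicates 2, 3 or 4 or DE replicates 3 or 5 (Pcna and Rfc4 with any library left out). Exons of Rfc4 overlap those of the abundant Eif4a2 (506 CPM) on the other strand.

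Of the 9 primase and polymerase genes 6 rose, and the primase genes had the highest fold changes among them. Prim1, the catalytic subunit, lay at 9.33, 10.2, 11.2 and 14.9 CPM in FA and at 21, 19.4, 21.6 and 18.4 CPM in DE (log2 fold change 0.82, SE 0.15, adjusted p = 0.0107). Prim2 lay at 4.76, 2.99, 4.91 and 6 CPM in FA and at 8.92, 9.15, 8.23 and 8.31 CPM in DE (log2 fold change 0.89, SE 0.18, adjusted p = 0.0203, up to 0.0679 without FA replicate 2). Both rose, and FA replicate 3 was the lowest library of Prim2. Of polymerase α, which extends the primers, Pola1 (catalytic, on chromosome X) lay at 16.1, 11.8, 15.4 and 18.6 CPM in FA and at 24.5, 20.6, 21.7 and 25.1 CPM in DE and rose (log2 fold change 0.57, SE 0.14, adjusted p = 0.0393, up to 0.114 without FA replicate 4). Pola2, its partner subunit, lay at 21.7, 21.7, 24.8 and 25.6 CPM in FA and at 23.7, 25.8, 29.5 and 20.4 CPM in DE with overlap and was not called (log2 fold change 0.09, 95% interval -0.19 to 0.36, adjusted p = 0.689).

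Polymerase δ copies mainly the lagging strand and polymerase ε the leading strand. Pold1, the catalytic subunit of δ, lay at 13.9, 12.9, 14.6 and 16.1 CPM in FA and at 22.2, 27.2, 26.4 and 20.9 CPM in DE and rose (log2 fold change 0.75, SE 0.12, adjusted p = 0.00736). Pold2 lay at 17.2, 21.7, 19.1 and 24.6 CPM in FA and at 28.9, 29.8, 30.4 and 26.3 CPM in DE and rose (log2 fold change 0.49, SE 0.12, adjusted p = 0.0417, up to 0.138 without FA replicate 4). Both were above FA in every DE library. Pold3 lay at 18.1, 20.02, 18.7 and 18.9 CPM in FA and at 21.3, 24.2, 22.9 and 22.1 CPM in DE, apart in all libraries but not called (log2 fold change 0.26, 95% interval 0.05 to 0.46, adjusted p = 0.117). Pole, the catalytic subunit of ε, lay at 13.3, 9.21, 15.4 and 18.3 CPM in FA and at 29.9, 20.9, 18.8 and 19.5 CPM in DE. Its groups did not overlap, yet FA replicate 6 came close to DE replicate 5, and DE replicate 1 stood far above the rest, and it was not called by the quasi-likelihood test (log2 fold change 0.67, 95% interval 0.22 to 1.12, adjusted p = 0.0783). It was called by the likelihood ratio test and by DESeq2 (adjusted p = 0.0255). Pole2 lay at 3.29, 3.24, 4.06 and 4.57 CPM in FA and at 5.9, 5.99, 5.93 and 6.87 CPM in DE and rose (log2 fold change 0.71, SE 0.15, adjusted p = 0.025, up to 0.0968 without FA replicate 2). Of the 9 genes of this role, 2 were called without FA replicates 2 or 4 or DE replicate 3, 3 without FA replicate 3 or DE replicate 7, and 4 without DE replicates 1 or 5. With name prefix 11 only, the quasi-likelihood test of edgeR called 0 of the 9, where 1.75% of all tested genes were called. The median log2 fold change was 0.68. In that fit 7 were higher at an unadjusted p under 0.05, a level at which the share of all tested genes was not taken.

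Lig1 showed the largest change of the 49. Lig1 (Entrez 16881, chr7:13277175-13311426), the ligase that joins Okazaki fragments, lay at 19.4, 17.6, 22.1 and 28.4 CPM in FA and at 40.5, 45.8, 44.6 and 45.6 CPM in DE. Its level in DE was 2.02 times that in FA (log2 fold change 1.02, SE 0.14, adjusted p = 0.003), and it was called in all 21 other settings. Fen1, the nuclease that trims the fragments before joining, lay at 10.02, 11.5, 12.7 and 13.9 CPM in FA and at 15.5, 18.7, 17.9 and 17.8 CPM in DE and rose (log2 fold change 0.54, SE 0.12, adjusted p = 0.0313, up to 0.105 without FA replicate 2). Of the 3 subunits of replication protein A, which coats single-stranded DNA, 2 rose. Rpa1, the large subunit, lay at 56.7, 56.3, 55.6 and 61.1 CPM in FA and at 72.8, 74.7, 74.4 and 74.2 CPM in DE (log2 fold change 0.37, SE 0.08, adjusted p = 0.0289, up to 0.115 without FA replicate 4). Rpa2 lay at 15.9, 17.1, 18.6 and 22.2 CPM in FA and at 25.6, 26.7, 27.1 and 28.9 CPM in DE (log2 fold change 0.56, SE 0.12, adjusted p = 0.0232, up to 0.0837 without FA replicate 2). Rpa1 and Rpa2 rose without overlap, Rpa1 by the smallest fold of all called members (1.29). Rpa3, the small subunit, lay at 9.35, 11.4, 9.36 and 10.03 CPM in FA and at 9.28, 11.5, 12.7 and 8.58 CPM in DE, overlapped and was not called (log2 fold change 0.07, 95% interval -0.24 to 0.39, adjusted p = 0.775). Without FA replicates 2, 3 or 4 or DE replicate 3, Lig1 was the 1 gene of these 5 still called, and 2 were called without DE replicates 5 or 7.

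All 5 genes of nucleotide supply rose, each without overlap. Rrm1 and Rrm2, the subunits of ribonucleotide reductase, which makes deoxyribonucleotides, had the highest CPM of the role, while per length of transcript Dut lay above Rrm1 in both groups. Rrm1 lay at 88.1, 86.3, 100.1 and 108 CPM in FA and at 147, 132, 130 and 149 CPM in DE (log2 fold change 0.55, SE 0.10, adjusted p = 0.0156, up to 0.0635 without FA replicate 2). Rrm2, the subunit tied to S phase, lay at 67.8, 58.6, 70.3 and 92.6 CPM in FA and at 111, 120, 121 and 110 CPM in DE (log2 fold change 0.68, SE 0.13, adjusted p = 0.0169, up to 0.0666 without FA replicate 4). Tk1, the thymidine kinase of cycling cells, lay at 14.5, 19.4, 15.5 and 24 CPM in FA and at 31.3, 35.7, 33.6 and 28.9 CPM in DE (log2 fold change 0.82, SE 0.15, adjusted p = 0.0145, up to 0.0606 without FA replicate 4). In both Rrm2 and Tk1, FA replicate 6 was the FA library nearest to DE. Tyms, which makes thymidylate, lay at 14.1, 12.9, 13.4 and 16.7 CPM in FA and at 18.2, 21.5, 21.5 and 18.3 CPM in DE (log2 fold change 0.48, SE 0.12, adjusted p = 0.0388, up to 0.133 without FA replicate 4). Dut, which removes dUTP, lay at 20.5, 24.9, 22.1 and 24.8 CPM in FA and at 32.5, 37.4, 43.3 and 34.7 CPM in DE (log2 fold change 0.68, SE 0.12, adjusted p = 0.00968). Dut was called with any 1 library left out. The role held 1 call without FA replicate 4 and 2 without FA replicate 2 or DE replicate 3.

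Counterparts of Rrm2 and Tk1 that work outside S phase were read beside them. Rrm2b, the reductase subunit used outside S phase and after DNA damage, lay at 39.95, 29.7, 39.5 and 34.2 CPM in FA and at 27.6, 24.4, 24.5 and 28.3 CPM in DE and fell (log2 fold change -0.46, SE 0.12, adjusted p = 0.0453, up to 0.145 without FA replicate 2). It was called without FA replicate 3 or DE replicate 1 and lost the call without any one of the other 6 libraries. The log2 ratio of Rrm2 over Rrm2b was 0.755, 0.97, 0.824 and 1.42 in FA and 1.99, 2.28, 2.28 and 1.93 in DE, a difference of 1.13. Tk2, the mitochondrial thymidine kinase, lay at 8.18, 9.61, 8.63 and 9.19 CPM in FA and at 8.98, 9.6, 8.92 and 9 CPM in DE and was not called (log2 fold change 0.04, 95% interval -0.20 to 0.28, adjusted p = 0.852). The log2 ratio of Tk1 over Tk2 was 0.979 ± 0.255 in FA and 1.77 ± 0.103 in DE (SD, n = 4 each). For both ratios the groups did not overlap, and the exact two-sided permutation p was 0.029, the smallest possible. The adjusted value was 0.0572, above 0.05 though neither ratio could have given a smaller p, so it decides nothing for them. Rrm2 over Rrm1 overlapped between groups (difference 0.142, exact permutation p = 0.229, adjusted 0.344).

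**Figure D4:**
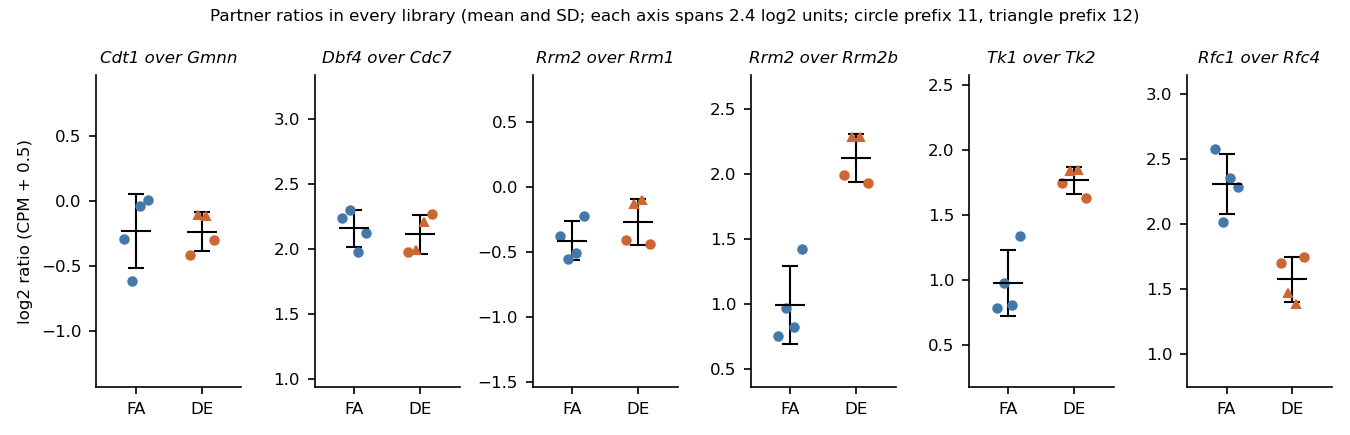
Log2 ratio of the CPM (plus 0.5) of 6 pairs of genes in every library, each panel spanning 2.4 log2 units; blue is FA, orange DE, circles have name prefix 11, triangles prefix 12, and bars give the mean and SD of 4 libraries. The groups overlap for Cdt1 over Gmnn, Dbf4 over Cdc7 and Rrm2 over Rrm1, and lie apart for Rrm2 over Rrm2b, Tk1 over Tk2 and Rfc1 over Rfc4.

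Further genes of the pathway were read from 4 lists of 47 genes in all, of which 17 rose, 1 fell and 29 were not called, with a median log2 fold change of 0.40. The 17 became 4, 5 and 4 without FA replicates 2, 3 and 4, and 3, 9 and 8 without DE replicates 3, 5 and 7. Of 16 genes of fork protection, scaffold and origin firing, 9 rose (median 0.50). The 9 became 1 without FA replicate 2 or DE replicate 3, 2 without FA replicates 3 or 4, 3, 4 and 6 without DE replicates 7, 5 and 1, 3 with the name prefix as a term, 1 with prefix 11 only and 0 with the 25% difference built into the test. Dscc1, of the loader that serves sister chromatid cohesion, lay at 1.23, 0.747, 1.86 and 1.33 CPM in FA and at 2.48, 3.18, 3.22 and 2.88 CPM in DE and rose most (log2 fold change 1.20, SE 0.24, adjusted p = 0.0182, up to 0.072 without FA replicate 2), and Clspn, the checkpoint adaptor claspin, followed (log2 fold change 0.75, SE 0.18, adjusted p = 0.034, up to 0.099 without FA replicate 4). The lowest of this list were Rif1, which limits origin firing (log2 fold change -0.68, SE 0.23, adjusted p = 0.103), and Chtf8, which works with Dscc1 (log2 fold change -0.14, SE 0.09, adjusted p = 0.352), neither called by the quasi-likelihood test. The likelihood ratio test and DESeq2 called Rif1 lower (DESeq2 adjusted p = 0.0429). Of 10 genes of chromatin assembly at the fork, 7 rose (median 0.63). The 7 became 2 without FA replicates 2 or 4 or DE replicate 3, 3 without FA replicate 3, 4 without DE replicate 5, 4 with the prefix as a term, 2 with prefix 11 only and 2 with the 25% difference built in. Uhrf1, which brings Dnmt1 to newly copied DNA, lay at 21.3, 18.4, 23.7 and 30.3 CPM in FA and at 47.2, 50.4, 48.5 and 46.7 CPM in DE and rose (log2 fold change 1.04, SE 0.14, adjusted p = 0.00272), and Cdca5, the cohesion factor sororin, rose too (log2 fold change 0.79, SE 0.17, adjusted p = 0.0258, up to 0.0943 without FA replicate 2). Asf1a (log2 fold change -0.02, SE 0.12, adjusted p = 0.92) and Nasp (log2 fold change 0.28, SE 0.10, adjusted p = 0.12), both histone chaperones, were the lowest and not called.

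Of 11 further genes of nucleotide supply, 1 rose, Rrm2b fell and 9 were not called (median 0.09). Dck, the deoxycytidine kinase, lay at 18.3, 13.4, 15.5 and 15.3 CPM in FA and at 22.8, 21.6, 21.4 and 23.7 CPM in DE and rose (log2 fold change 0.51, SE 0.11, adjusted p = 0.0265, up to 0.0915 without FA replicate 4). Dctpp1, which breaks down dCTP, came next and was not called (log2 fold change 0.44, SE 0.18, adjusted p = 0.156). Besides Rrm2b, the lowest was the mitochondrial kinase Dguok (log2 fold change -0.04, SE 0.18, adjusted p = 0.915). Of 10 further polymerase subunits and strand processing genes, 0 were called in either direction by the quasi-likelihood test (median 0.31), with 4 higher and 1 lower at an unadjusted p under 0.05, and DESeq2 and the likelihood ratio test each called 2 higher and 1 lower. The highest of them were Exo1 (log2 fold change 0.63, SE 0.24, adjusted p = 0.136) and Top2a (log2 fold change 0.49, SE 0.13, adjusted p = 0.0515), and the lowest Top1 (log2 fold change -0.40, SE 0.11, adjusted p = 0.0522) and Pole3 (log2 fold change 0.19, SE 0.11, adjusted p = 0.283). Of 10 proliferation markers outside replication, 5 rose (median 0.39), with Aurkb, a mitotic kinase, highest (log2 fold change 0.73, SE 0.13, adjusted p = 0.0112), then Birc5 (log2 fold change 0.64, SE 0.12, adjusted p = 0.0142, up to 0.0642 without FA replicate 4). Plk1 (log2 fold change 0.23, SE 0.15, adjusted p = 0.357) and Mki67 (log2 fold change 0.26, SE 0.17, adjusted p = 0.342) were the lowest and were not called. The 5 became 2 without FA replicate 2, 1 without FA replicate 4, and 0 in edgeR when the test itself asked for a 25% difference. They became 0 with prefix 11 only, where 1.75% of all tested genes were called. In that fit 6 were higher at an unadjusted p under 0.05, and the share of all tested genes at that level was not taken.

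The count of 35 rested on the whole set of libraries more than the direction did. With 1 library left out, 16 members were called without FA replicate 2, 20 without FA replicate 3, 16 without FA replicate 4, 35 without FA replicate 6, 32 without DE replicate 1, 17 without DE replicate 3, 22 without DE replicate 5 and 24 without DE replicate 7. The share of all tested genes that was called ran from 1.53% to 7.93% in these fits. Of the 35 genes, 15 were called in all 8 of them, and 20 lost the call in at least 1. With the libraries of name prefix 11 only (4 FA and 2 DE), 7 members were called (Gmnn, Mcm3, Mcm6, Mcm7, Pcna, Lig1 and Rrm1) where 1.75% of tested genes were, and the median log2 fold change was 0.54. With the name prefix as a term, 21 members were called where 2.99% of tested genes were. The 14 that lost the call were Orc1, Cdc6, Cdt1, Mcm4, Cdc7, Dbf4, Rfc2, Rfc3, Pold2, Rpa1, Rpa2, Fen1, Rrm2 and Tyms, at adjusted p from 0.0505 (Rpa2) to 0.162 (Tyms).

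Markers of other cells were read in the same libraries. Of the 10 fibroblast markers, 3 rose (Col1a1, Dcn and Dpt, of which Col1a1 was called with any library left out), DESeq2 called 7 higher, and the median log2 fold change was 0.66. Of the cardiomyocyte markers, Myh6 and Pln fell and 8 were not called (median -0.18). Myh6 was called with any library left out, Pln lost the call in 6 of the 8 such fits (adjusted p up to 0.116), and DESeq2 called 3 lower. The cardiomyocyte markers summed to 67730 to 74670 CPM in FA and 52780 to 61460 CPM in DE. Endothelial markers summed to 1071 to 1410 CPM in FA and 1178 to 1750 CPM in DE with 1 of 10 called (Robo4, lost in 6 of the 8 fits without 1 library) and 3 called higher by DESeq2. Leukocyte markers summed to 14.64 to 21.41 CPM in FA and 18.7 to 29.99 CPM in DE with 0 of 6 tested called (1 higher by DESeq2). Erythroid markers summed to 758.9 to 1880 CPM in FA and 1208 to 2021 CPM in DE with 1 of 6 tested called (Slc4a1, lost in 6 of the 8 fits). The sums of smooth muscle and pericyte, epicardial and atrial markers overlapped between groups, and the quasi-likelihood test of edgeR called 0 of these genes, against 1 lower among the atrial ones by the likelihood ratio test and by DESeq2. At an unadjusted p under 0.05, 1 of the 19 was higher and 4 were lower, and over all tested genes the shares were 13.4% and 12.2%. No marker was at 0 in every library. Within FA, replicate 3 was the lowest and replicate 6 the highest in both the fibroblast sum and the sum of the replication genes. Within DE the extremes were turned, since DE replicate 5 had the lowest fibroblast sum (3922 CPM) with the highest replication sum (1726 CPM) and DE replicate 1 the highest fibroblast sum (6583 CPM) with the lowest replication sum (1646 CPM). FA replicate 6 and DE replicate 5 lay near each other in fibroblast markers (3753 and 3922 CPM) and apart in the replication genes (1355 and 1726 CPM). The part of other cells in the change of the replication genes was not tested.

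**Figure D5:**
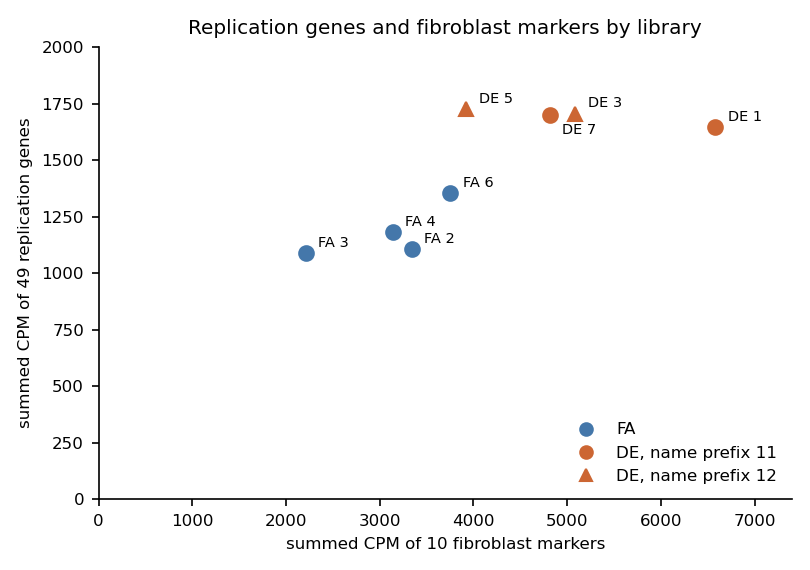
Summed CPM of the 49 replication genes (vertical) against summed CPM of 10 fibroblast markers (horizontal) in the 8 libraries, both axes from 0; blue is FA, orange DE, and triangles are DE libraries with name prefix 12. The replication sum lies between 1087 and 1355 CPM in FA and between 1646 and 1726 CPM in DE, while the fibroblast sum runs from 2210 to 3753 and from 3922 to 6583 CPM.

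Exons of 17 of the 49 genes overlap another annotated gene, and for 13 that gene is in the table. Besides Mcm7 and Rfc4, they include Orc6 with Vps35 (167 CPM), Rfc5 with Wsb2 (125 CPM), Gins2 with Gse1 (69.4 CPM), Orc4 with Acvr2a (61.6 CPM), Cdc45 with Ufd1 (55.0 CPM) and Tk1 with Afmid (18.5 CPM), all on opposite strands. Orc5 shares exons with a pseudogene on its own strand, Gm15421 (6.63 CPM), where strand could not tell the reads apart. The libraries were stranded, but whether counting used the strand is not given in the sources used here, so the levels of the genes with a partner on the opposite strand are uncertain to that extent.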

How the data were processed

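NCM RNA from 8 male neonates, 4 FA and 4 DE, was analysed. The authors selected poly-A RNA, made stranded libraries, checked read quality, aligned to mm10 with Tophat, marked duplicates with Picard but kept them, recalibrated base qualities with GATK and obtained fragment totals per gene from featureCounts. The table they deposited holds these raw counts by Entrez ID. Strand setting and handling of reads with several positions are not given in the sources used here, and the former decides the counts of overlapping genes. Kept duplicates can overstate the counting precision, and their share was not measured here. The methods give n = 3 a group, the labels 4, and all 8 libraries were used. Each library came from 1 heart and litters are not given, so p-values measure the spread between these libraries.

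Libraries were grouped by the exposure in their labels. Totals were 17943024 to 38619126 counts in FA and 18683325 to 39839737 in DE. No pair of libraries of a group agreed within sampling noise. With a minimum count of 10, filterByExpr kept 14966 of 27179 genes. Scaling used TMM, and testing used glmQLFit and glmQLFTest of edgeR 4.0.16 in R 4.3.3, with no term but exposure. The biological coefficient of variation was 15.95%. Ratios of partner genes used CPM plus 0.5 and an exact two-sided permutation test. The alternatives tried other tests (DESeq2 1.42.0, the likelihood ratio test of edgeR, voom of limma 3.58.1, and a test with the 25% difference built in) and other scaling (relative log expression, upper quartile, totals only). They also dropped the filter or asked for a mean of at least 1 CPM, added the name prefix as a term, used prefix 11 only and left out each library in turn. Offsets for transcript length and GC content (splines, 5 degrees of freedom) were applied to the 92.55% of tested genes with both properties, which were also fitted without offsets. The code was tested on simulated data.

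All 49 members are named. Values per library were to be given for the 3 smallest and 3 largest adjusted p in each role, for members that lost the call without a library and for ratio partners, and were extended to the remaining members. Of each further list the 2 highest and 2 lowest log2 fold changes were named. The members and lists were chosen with earlier results of these data known, and the lists were written from general knowledge. A gene of the further lists is not reported here and was left out of their counts. Gene positions came from RefSeq, and so did promoter windows (GRCm38.p6). Exon lengths and exon overlaps came from the GENCODE annotation of GRCm38.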

Additional observations from a re-analysis of the deposited data

Results flagged for a closer look

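Of 112 sets of 4 libraries examined (each member and sum in FA and in DE), 1 held a library far from the other 3. Pole2 lay at 6.87 CPM in DE replicate 7 and at 5.9 to 5.99 CPM in the other DE libraries. The gap was 0.902 of the range, above Dixon's critical value of 0.829 for 4 samples. Chance alone gives about 1 in 20 such sets, which is 5.6 of 112.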

How the results depend on the processing

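No paired analysis was made, because the labels name no pairs of FA and DE libraries. The 35 calls among the members became 5 with the 25% difference built into the test, 21 with the name prefix as a term and 7 with prefix 11 only, and ran from 16 to 35 with 1 library left out. The share of all tested genes called went from 5.8% to 0.762%, 2.99% and 1.75% in the same 3 settings and ran from 1.53% to 7.93%. The 17 higher calls among the further pathway genes became 2, 9 and 3 in the same order, and ran from 3 to 15. Under the other tests, scalings, filters and offsets the count of members stayed within 1.5 times. The fits on fewer libraries have fewer samples, and the cause of the other shifts was not tested. The median log2 fold change of the members ran from 0.52 to 0.67 over all settings. No called member changed sign, and 5 (Gmnn, Mcm3, Mcm6, Pcna and Lig1) were called in all 21 alternatives. The sign turned in 5 genes that were not called. With the prefix as a term, prefix 11 only and length and GC offsets, the log2 fold change of Orc3 became 0.0675, 0.0631 and 0.0164 and that of Orc5 0.0279, 0.0226 and 0.0216. In the same settings Rfc1 gave 0.0503, 0.0457 and 0.00603, with library totals alone 0.0354, and with 1 library left out from -0.0939 to 0.0113 (without FA replicate 6). Pola2 gave -0.0837 with the prefix as a term, -0.0889 with prefix 11 only and from -0.00466 (without DE replicate 5) to 0.163 with 1 library left out. Rpa3 gave -0.161, -0.167 and from -0.0293 (without DE replicate 5) to 0.1495 in these settings. With 4 libraries a group and a biological coefficient of variation of 15.95%, differences as small as that of Rpa3 or Rfc1 were not detectable.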
